A study of Rattus norvegicus with 12 samples.

Results

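Rat testis after 3 days of restraint stress plus ice-water swimming (RS+IS) was compared with control testis in the 6 libraries that the sample titles assign to these groups, 3 of each, out of 12 libraries in the series. All rats were male Sprague Dawley animals, given as 8 weeks old in the study, which states no age at sampling. Total RNA of whole testis was sequenced after removal of ribosomal RNA. The stressed rats were held on their backs for several hours and then swam in ice water, on each of 3 days, and testes were taken about an hour after the last session. The controls were not restrained and did not swim, but they too went without food and water during the sessions, so deprivation is common to both groups. The study kept controls at each of its time points, and the labels do not say to which time point the 3 control libraries belong. The members described are all transcripts of the deposited tables and, among them, 578 spermatogenic cell markers whose names and cell types come from the study: 12 for spermatogonia (SPG), 181 for spermatocytes (SPC) and 385 for spermatids.

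Spermatogenesis runs from SPG, which divide by mitosis at the base of the seminiferous tubule, through SPC, which pair and recombine their chromosomes in meiosis, to haploid spermatids. Spermatids build the acrosome and the flagellum and replace their histones first by transition proteins and then by protamines. Somatic Sertoli and Leydig cells support this process, and glucocorticoids and the sympathetic nervous system are known routes by which stress reaches the testis.

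Each library held between 25720356 and 29404562 estimated counts, and every one of the 578 markers had at least 10 counts in each of the 6 libraries. One control library stood apart from the others. In control 1, 139 features were at 5 CPM (counts relative to library size) or more and at least 10 times higher than in both other control libraries, against 3 features in control 2 and 3 in control 3. The same rule found 21 features in 3-day library 1, 5 in 3-day library 2 and 3 in 3-day library 3. The 139 features took 0.787% of the counts of control 1, 0.0100% of control 2 and 0.00933% of control 3. Their share was 0.0955%, 0.0181% and 0.0110% in the 3-day libraries, and 46 of them were at least 5 times higher in the first 3-day library than in both others. None of the 139 was a marker, and the deposited tables give no gene names for them. Somatic cell types could not be checked for the same reason. Counts and medians of the marker groups are therefore given with and without it.

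With the quasi-likelihood test of edgeR, no feature passed the threshold after correction for the number of features. Of 21076 features that passed the filter on low counts, 0 had an adjusted p under 0.05 (0% of features called), and the lowest adjusted p was 0.107. At an unadjusted p under 0.05, 415 features (1.97%) were higher and 430 (2.04%) were lower in the 3-day stress group, 845 in all. The 3 stress libraries were all above the 3 control libraries for 1109 features (5.26%) and all below them for 984 (4.67%). The median log2 fold change of all features was -0.01. Among features with a mean of at least 1 CPM, 77 had a log2 fold change of 1 or more and 256 of -1 or less, and of these 256 the highest library was control 1 for 192.

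**Figure D1:**
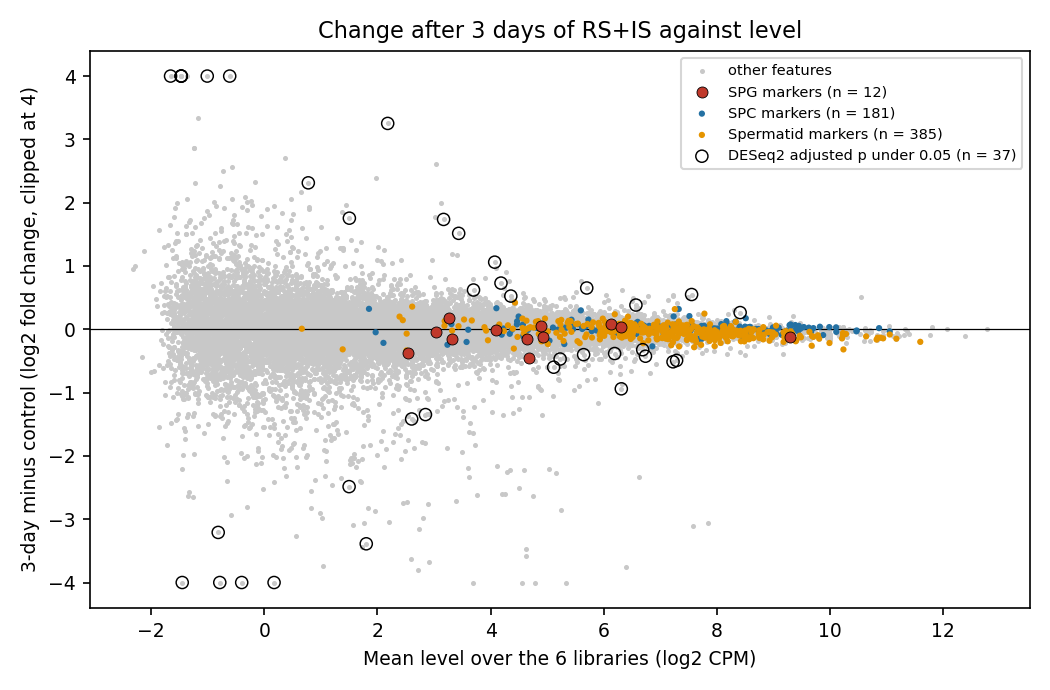
Each point is a feature, with its mean level over the 6 libraries on the x axis (log2 CPM) and the 3-day minus control log2 fold change on the y axis, clipped at 4 in both directions. Markers lie between -0.45 and 0.42, and the 37 circled features are those with a DESeq2 adjusted p under 0.05, none of them a marker.

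DESeq2 and limma-voom, unlike edgeR, called a few transcripts at an adjusted p under 0.05, all outside the markers. DESeq2 gave 37 of 20991 features with an adjusted p under 0.05 (0.176%), 19 higher and 18 lower, and limma-voom gave 5. In all 37 the groups did not overlap, where 5.26% of all features were higher and 4.67% lower without overlap. A choice by p on the same values favours this, so it adds no evidence. Of the 37, 10 had a mean under 1 CPM, and 9 had no count in any library of one group. None of the 37 or of the 5 was a marker. The transcript with the lowest p, ENSRNOT00000010816.4, is one of those for which the tables give no gene name. It had 0.655, 0.701 and 1.22 CPM in the control libraries and 7.90, 8.30 and 8.46 CPM in the 3-day libraries. Every stress library was above every control library, which was a condition for naming this transcript. The log2 fold change was 3.25 (standard error 0.262), with adjusted p = 0.107 from edgeR and adjusted p = 0.0365 from limma-voom, and it stayed between 3.09 and 3.59 when any single library was left out. In the later stress groups this transcript varied between libraries of one group, with 5.86, 0.550 and 0.409 TPM (counts scaled to transcript length and library) after 14 days and 2.93, 3.18 and 0.339 TPM after 21 days.

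A short transcript of 348 bases, ENSRNOT00000057587.2, had 11.1, 10.5 and 11.1 CPM in the control libraries and 25.3, 21.96 and 21.1 CPM in the 3-day libraries. The 3 values of each group lay close together and the groups were far apart. Its log2 fold change was 1.06 (standard error 0.10, edgeR adjusted p = 0.155, DESeq2 adjusted p = 3.30e-11). This transcript had 162, 144 and 173 TPM after 14 days and 151, 0 and 127 TPM after 21 days. In the control libraries it had 156, 142 and 149 TPM. Among the lower transcripts, ENSRNOT00000076061.1 had 119, 108 and 86.0 CPM in the control libraries and 47.1, 58.7 and 57.4 CPM after 3 days. The log2 fold change was -0.94 (standard error 0.137, edgeR adjusted p = 0.382, DESeq2 adjusted p = 1.30e-07). ENSRNOT00000054686.2, also lower in all 3 stress libraries, had 40.8, 43.0 and 41.6 CPM in the control libraries and 29.3, 25.7 and 27.7 CPM in the stress libraries, a log2 fold change of -0.60 (standard error 0.0741, edgeR adjusted p = 0.263, DESeq2 adjusted p = 1.36e-06). For these 4 transcripts the sign was the same whichever library was left out. They were named only from those whose groups did not overlap, which all but fixes that outcome.

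How small a difference the data allow was read from the 95% confidence interval of each log2 fold change. The interval lay within 0.5 of 0 on the log2 scale, a 1.41-fold difference in either direction, for 10466 features (49.7%), and within 1, a 2-fold difference, for 16010 features (76.0%). The bound depended on the level. When features were ranked by mean CPM and divided into 4 bins of 5269, 2 features of the lowest bin had an interval within 0.5 and 4933 of the highest bin did. Of the 578 markers, 495 fell in that highest bin. The markers were accordingly measured more closely than most features, with a median standard error of 0.0826 against 0.155 over all features.

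Across the markers, 542 of 578 had an interval within 0.5 of 0 and 572 within 1. The unadjusted threshold of 0.05 was passed by 5 higher markers (0.865%, against 1.97% of all features) and 13 lower markers (2.25%, against 2.04%), with a lowest adjusted p of 0.981 over all features. All 3 stress libraries were above all 3 control libraries for 16 markers (2.77%, against 5.26% of all features) and below them for 19 (3.29%, against 4.67%). The median log2 fold change of the markers was -0.02, with 218 positive and 360 negative values. For 6 markers the data set no close bound, their intervals reaching past 1. These were Sccpdh, Morc2b, Nqo2, Cited1, Actg2 and Wfdc15a. Sccpdh, for example, had 16.3, 29.9 and 27.98 CPM in the control and 46.1, 14.8 and 7.96 CPM in the stress libraries, a spread within groups that left an interval from -1.52 to 1.31.

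The 12 SPG markers showed no common direction. Their median log2 fold change was -0.08, 4 were positive and 8 negative, 0 had an unadjusted p under 0.05, and 8 had an interval within 0.5 of 0. The groups did not overlap for 2 higher markers (16.7%, against 5.26% of all features) and 2 lower markers (16.7%, against 4.67%). Together the 12 markers took 0.111%, 0.0874% and 0.0902% of the counts in the control libraries and 0.0939%, 0.0908% and 0.0903% in the 3-day libraries. Control 1 was the highest of the 6 libraries and the other 5 lay close together. Hspa5 alone made up most of this share in each library, so the share mainly follows that gene and not the 12 markers evenly. In bulk tissue, fewer cells of a type and less RNA per cell cannot be told apart.

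Stra8, which germ cells need to enter meiosis, had 8.84, 9.27 and 9.08 CPM in the control libraries and 11.5, 9.65 and 9.68 CPM in the 3-day libraries. The stress libraries were all higher, with a log2 fold change of 0.18 (95% interval -0.09 to 0.45, standard error 0.112, adjusted p = 0.981). Ccne2, which encodes cyclin E2 of the entry into S phase, had 68.0, 68.1 and 68.6 CPM in the control and 69.4, 71.0 and 76.7 CPM in the stress libraries. Its groups did not overlap either, although the log2 fold change was 0.08 (95% interval -0.05 to 0.22). With 3 libraries against 3, the smallest p of an exact permutation test is 0.1, which is the value both genes reached.

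Cdk2ap2, an inhibitor of the kinase Cdk2, was lower in the stress libraries at 5.15, 5.53 and 4.61 CPM against 8.23, 5.57 and 6.05 CPM in the control libraries. The second control library lay only just above the second stress library. The log2 fold change was -0.38 (95% interval -0.82 to 0.06), and -0.19 without control 1. Cited1, a transcriptional coregulator, had the lowest log2 fold change of all 578 markers, -0.45 (standard error 0.361), and this value came from 1 library. Control 1 had 49.4 CPM, while the other control libraries had 19.2 and 20.01 CPM and the stress libraries 24.1, 19.9 and 20.9 CPM. Without control 1 the log2 fold change of Cited1 was 0.14. Ccnd1, which encodes cyclin D1 of the G1 phase, had 15.5 CPM in control 1 and between 8.10 and 10.6 CPM in the other 5 libraries, and its log2 fold change went from -0.16 to 0.22 without control 1. The chromatin protein Nucks1 went from -0.16 to 0.05 and the small GTPase Rac1 from -0.12 to 0.02.

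The remaining SPG markers were close to the control values. Slc25a31, the ADP/ATP carrier of germ cell mitochondria, had a log2 fold change of 0.03 (95% interval -0.11 to 0.17). Atad5, which removes the clamp PCNA from replicated DNA, had 0.05 (95% interval -0.15 to 0.25). Tex19.1, which acts in the control of transposable elements, had 17.8, 16.01 and 17.5 CPM in the control and 18.1, 16.2 and 16.9 CPM in the stress libraries, a difference of 0.00 with an interval from -0.22 to 0.21. Elavl2, an RNA-binding protein, had -0.04 (95% interval -0.36 to 0.28).

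The 181 SPC markers were divided evenly around 0. Their median log2 fold change was 0.00, 93 were positive and 88 negative, and 167 had an interval within 0.5 of 0. They took 4.71%, 5.08% and 4.91% of the counts in the control libraries and 4.99%, 4.98% and 5.07% in the 3-day libraries, so that the stress libraries lay inside the range of the controls. One SPC marker was higher and 1 was lower at an unadjusted p under 0.05 (0.552% each, against 1.97% and 2.04% of all features). The groups did not overlap for 7 higher markers (3.87%, against 5.26%) and 1 lower marker (0.552%, against 4.67%). Sycp3, a component of the lateral element of the synaptonemal complex, had 361, 382 and 395 CPM in the control and 417, 363 and 389 CPM in the stress libraries. The groups overlapped, and the log2 fold change was 0.04 (95% interval -0.13 to 0.20). Piwil1, which binds piRNAs in pachytene SPC and round spermatids, had 393, 455 and 430 CPM against 414, 401 and 466 CPM, a log2 fold change of 0.00 (95% interval -0.19 to 0.20).

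The SPC markers with the highest TPM were as close. Cox7b2, a testis form of a cytochrome c oxidase subunit, had 6433 ± 171 TPM (SD, n = 3) in the control and 6593 ± 327 TPM (SD, n = 3) in the 3-day stress group. Cmtm2a, a member of the chemokine-like factor family, had 2004 ± 151 and 2008 ± 54.3 TPM (SD, n = 3 each), and Serf1 had 1958 ± 89.2 and 2102 ± 44.1 TPM (SD, n = 3 each). On the CPM scale their log2 fold changes were -0.01, -0.03 and 0.07.

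The 385 spermatid markers had a median log2 fold change of -0.04, with 264 negative and 121 positive values, and 367 had an interval within 0.5 of 0. At an unadjusted p under 0.05, 4 were higher (1.04%, against 1.97% of all features) and 12 lower (3.12%, against 2.04%). The groups did not overlap for 7 higher (1.82%, against 5.26%) and 16 lower (4.16%, against 4.67%). Their share of the counts was 9.02%, 10.2% and 9.96% in the control libraries and 9.12%, 9.69% and 9.39% in the 3-day libraries. The lowest of the 6 values was that of control 1 and the highest that of control 2, with the stress libraries between them.

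Tnp1, the transition protein that follows histones on spermatid DNA, had 1748, 2326 and 2111 CPM in the control and 1841, 1910 and 1849 CPM in the stress libraries. The stress libraries fell inside the control range, with a log2 fold change of -0.14 (95% interval -0.39 to 0.11), which was -0.25 without control 1. In TPM it had the highest level of all markers, at 19121 ± 2292 (SD, n = 3) in the control and 17656 ± 677 (SD, n = 3) after 3 days. Tnp2, the other transition protein, had 1015, 1343 and 1317 CPM against 1127, 1166 and 1234 CPM and a log2 fold change of -0.06 (95% interval -0.33 to 0.21). Oaz3, the antizyme of spermatids that limits polyamine synthesis, had 2870, 3638 and 3414 CPM in the control and 2731, 2995 and 2925 CPM in the stress libraries. Stress libraries 2 and 3 were above control 1 and below the other controls, and the log2 fold change was -0.20 (95% interval -0.43 to 0.04).

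**Figure D2:**
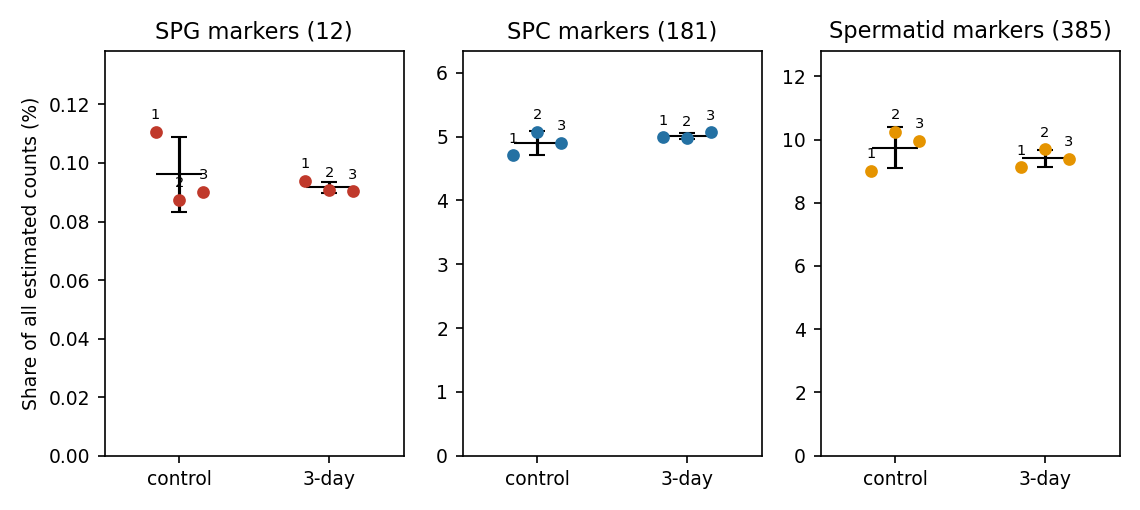
Share of all estimated counts (%) taken by the SPG, SPC and spermatid markers in each library, with the replicate number above each point and the mean ± SD of each group as a bar. Most of the SPG share is that of Hspa5. Control 1 is the highest library for the SPG markers at 0.111% and the lowest for the SPC markers at 4.71% and the spermatid markers at 9.02%, and the 3-day libraries lie closer together than the controls in all panels.

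The control libraries differed more among themselves than the stress libraries did. The SD of log2 CPM was larger in the control than in the stress group for 448 of 578 markers (77.5%), against 62.1% of all features. Control 1 was the lowest of the 6 libraries for 305 markers (52.8%), against 19.6% of all features, and control 2 was the highest for 296 (51.2%), against 17.8% of all features. This held for 202 of the 385 spermatid markers and for 101 of the 181 SPC markers in the case of control 1 as the lowest library. For the SPG markers control 1 was the highest library in 6 of 12.

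The number of lower and higher markers depended on single libraries, most of all on control 1. Without control 1, 129 markers were lower and 4 higher at an unadjusted p under 0.05, where 3.83% of all features were lower and 3.04% higher. Of the 129, 121 were spermatid markers, whose median log2 fold change was then -0.11, and the medians were -0.03 for SPC and 0.04 for SPG markers. Without control 2, 7 markers were lower and 16 higher, where 3.08% of all features were lower and 2.80% higher. The spermatid median was then 0.01 with 11 higher and 5 lower, the SPC median 0.04 and the SPG median -0.11. Without both libraries that held the set of 139 features at raised levels, control 1 and the first 3-day library, 93 markers were lower and 2 higher, where 3.25% of all features were lower and 2.93% higher, and the spermatid median was -0.08. That last choice was made after the data were seen. In none of these fits did a marker pass an adjusted p of 0.05, and the part of the 139 features in these differences was not tested.

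**Figure D3:**
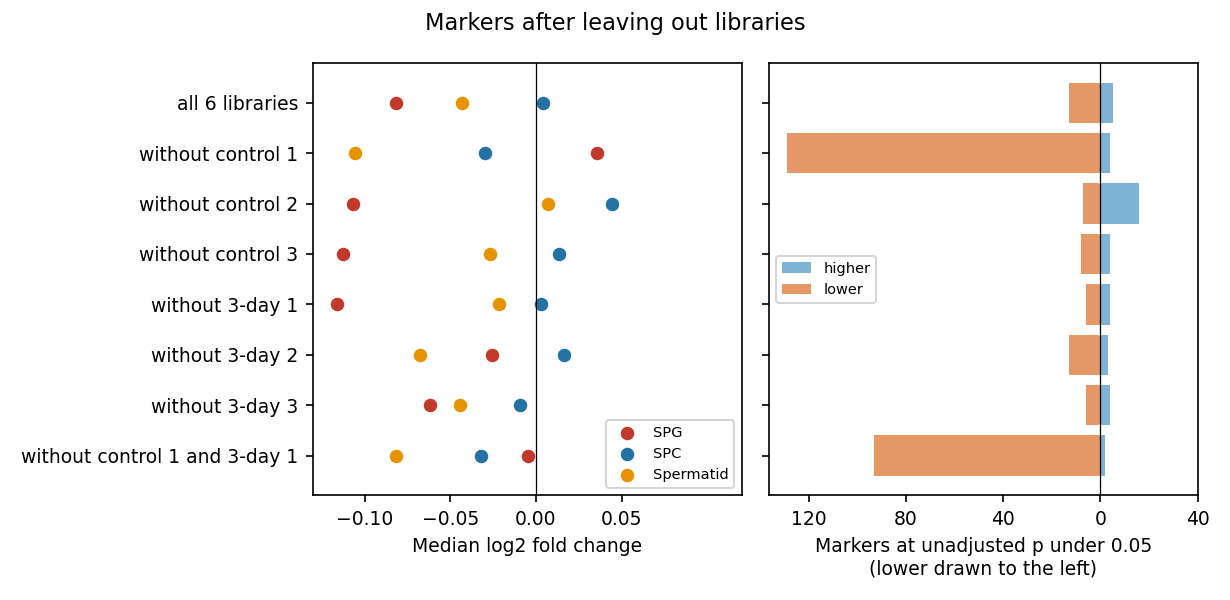
Median log2 fold change of the SPG, SPC and spermatid markers (left) and number of markers at an unadjusted p under 0.05 (right, lower markers to the left of 0) with all 6 libraries and with libraries left out. The number of lower markers was 13 with all libraries, 129 without control 1 and 93 without control 1 and the first 3-day library.

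The 18 markers past the unadjusted threshold each had an adjusted p of 0.981 in edgeR, and their differences were small, between -0.32 and 0.42 on the log2 scale. Each was picked out by its values, and 13 were lower. Glul, which encodes glutamine synthetase, had 1525, 1248 and 1248 CPM in the control and 1092, 1085 and 1048 CPM in the stress libraries. Control 1 was well above the other controls, and all stress libraries were below all controls. The log2 fold change was -0.32 (standard error 0.0904), and -0.22 without control 1. Lipe, the hormone-sensitive lipase that releases fatty acids and cleaves cholesterol esters, had 245, 298 and 274 CPM against 209, 233 and 237 CPM, a log2 fold change of -0.27 (standard error 0.0887). Agpat3, an acyltransferase of phospholipid synthesis, had 247, 252 and 247 CPM against 216, 223 and 218 CPM. Both of its groups were tight and did not overlap, with a log2 fold change of -0.18 (standard error 0.0475).

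Of the other lower markers, Tssk6, a kinase of the late spermatid nucleus, had 192, 169 and 168 CPM in the control and 136, 161 and 142 CPM in the stress libraries, a log2 fold change of -0.27 (standard error 0.0872). Cabs1, a calcium-binding protein of elongating spermatids, had 771, 969 and 933 CPM against 738, 760 and 736 CPM. Its control 1 lay just above the stress libraries, and the log2 fold change was -0.26 (standard error 0.0913). Spata18, which acts in mitochondrial quality control, had -0.22 (standard error 0.0721). Pdzd8, which tethers the endoplasmic reticulum (ER) to other organelles, had 203, 229 and 207 CPM against 164, 185 and 176 CPM, a log2 fold change of -0.28 (standard error 0.0727). The tetraspanin Tspan6 had -0.20, the GTPase-activating protein Tbc1d20 -0.16 and the integrin Itgae, the lower SPC marker, -0.18. For Tspan6 the groups overlapped, and for the other 12 lower markers they did not. Over all features 4.67% were lower without overlap. A choice by p on the same values favours groups that do not overlap, so this count adds no evidence.

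The 5 higher markers were spermatid markers, apart from the SPC marker Smpd5. Apobec4, of the family of polynucleotide deaminases, had 20.9, 20.1 and 14.3 CPM in the control and 28.4, 21.3 and 24.5 CPM in the stress libraries. The lowest stress library lay just above the highest control, and the log2 fold change of 0.42 (standard error 0.173) was the highest of all markers. Cdkn1c, the imprinted gene of the cyclin-dependent kinase inhibitor p57, had 5.42, 5.26 and 5.43 CPM against 6.72, 7.83 and 6.11 CPM, a log2 fold change of 0.36 (standard error 0.141). Zdbf2, another imprinted gene, had 79.1, 83.6 and 78.0 CPM against 86.1, 95.7 and 94.5 CPM and a log2 fold change of 0.20 (standard error 0.0610). Smpd5, a sphingomyelinase, had 146, 151 and 123 CPM against 165, 158 and 162 CPM, a log2 fold change of 0.20. Tex21 had 57.3, 60.9 and 60.5 CPM against 66.0, 69.2 and 65.7 CPM, a log2 fold change of 0.17. For all 5 the groups did not overlap (5.26% of all features were higher without overlap), which the choice by p again favours.

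**Figure D4:**
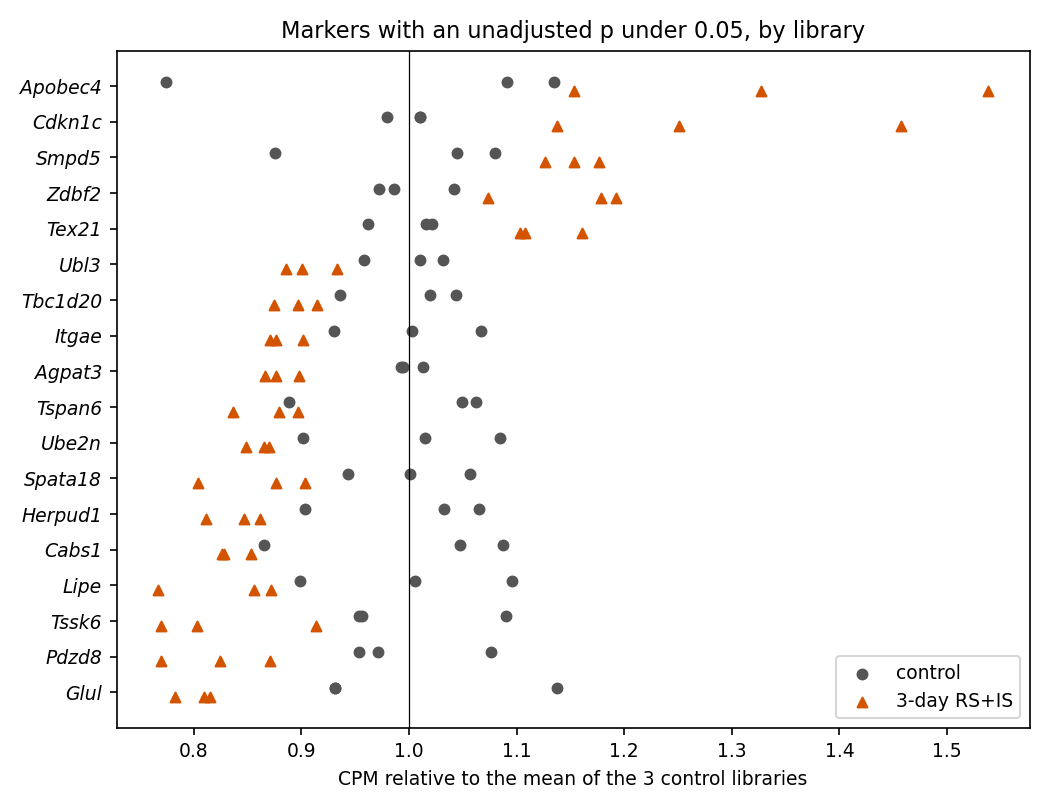
CPM in each library of the 18 markers past the unadjusted threshold of 0.05, relative to the mean of the 3 control libraries (x axis), with circles for control and triangles for 3-day RS+IS libraries. The groups overlap for Tspan6 and not for the other markers, and control 1 is the control nearest to the stress libraries for Cabs1, at 771 CPM.

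Chaperones and proteins of the ER were described as a list because such proteins take part in cell stress responses. The list holds only markers of the study. Stress genes outside the markers could not be named, so the list cannot show whether a cell stress response was absent. When unfolded proteins gather in the ER, the transcription factor ATF6 acts on a promoter element named the ER stress element and raises chaperones such as Hspa5 and components of ER-associated degradation such as Herpud1. In the textbook form the element is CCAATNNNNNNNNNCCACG. The 250 bases before the gene start in RefSeq (assembly GRCr8, another build than the one used for the counts) are shown for 3 markers of this list, with the match in capitals. Hspa5 lies at chr3:38452766-38453015 on the plus strand, Creld2 at chr7:121789134-121789383 on the plus strand with the match on the reverse strand, and Herpud1 at chr19:10614708-10614957 on the minus strand with a match to the element without its last base.
Hspa5: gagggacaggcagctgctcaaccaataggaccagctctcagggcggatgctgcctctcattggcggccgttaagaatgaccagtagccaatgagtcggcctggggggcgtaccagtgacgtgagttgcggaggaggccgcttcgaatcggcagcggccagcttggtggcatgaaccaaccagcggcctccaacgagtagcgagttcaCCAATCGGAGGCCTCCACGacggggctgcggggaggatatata
Creld2: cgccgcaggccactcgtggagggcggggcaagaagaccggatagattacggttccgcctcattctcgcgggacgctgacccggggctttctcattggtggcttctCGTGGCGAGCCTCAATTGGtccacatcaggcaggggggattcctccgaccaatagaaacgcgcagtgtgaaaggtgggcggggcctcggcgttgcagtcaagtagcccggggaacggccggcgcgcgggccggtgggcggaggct
Herpud1: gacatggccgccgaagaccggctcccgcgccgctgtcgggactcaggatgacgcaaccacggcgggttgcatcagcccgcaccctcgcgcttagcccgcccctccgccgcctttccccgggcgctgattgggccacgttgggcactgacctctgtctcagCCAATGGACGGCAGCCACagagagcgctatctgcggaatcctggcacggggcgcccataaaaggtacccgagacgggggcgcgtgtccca

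The full element was found, on either strand, in 22 of 33469 RefSeq promoters (0.0657%), and the form without the last base in 105 (0.314%), which include those 22. Each promoter window has 250 bases before and 50 after the gene start. A promoter was found by symbol for 469 of the 578 markers. Of these, 3 held the full element and 5 the shorter form (Birc5, Creld2, Herpud1, Hspa5 and Tuba3b), with log2 fold changes between -0.25 and -0.01.

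Hspa5, the main chaperone of the ER lumen and an SPG marker of the study, had 735, 614 and 616 CPM in the control libraries and 600, 605 and 596 CPM in the 3-day libraries. The stress libraries were all below the controls, but controls 2 and 3 lay close to them, and the log2 fold change was -0.13 (95% interval -0.32 to 0.07, adjusted p = 0.981). Without control 1 it was -0.03. Herpud1, a protein of the ER membrane, had 144, 170 and 164 CPM in the control and 129, 137 and 135 CPM in the stress libraries. Here the stress libraries were clearly apart from controls 2 and 3, and the log2 fold change of -0.25 (95% interval -0.43 to -0.08, unadjusted p = 0.0110, adjusted p = 0.981 with edgeR) was -0.32 without control 1. Creld2, a disulfide isomerase of the ER, had 114, 109 and 108 CPM against 112, 111 and 105 CPM, a log2 fold change of -0.01 (95% interval -0.14 to 0.11).

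Over the 19 members of this list, 1 was lower at an unadjusted p under 0.05 (Herpud1; 5.26% of the list, against 2.04% of all features) and 0 were higher, 14 values were negative and 5 positive, and the median log2 fold change was -0.05 beside -0.01 for all features. Without control 1, 7 of the 19 were lower and the median was -0.09, where 3.83% of all features were lower with a median of 0.01. Without control 1 and the first 3-day library, 6 were lower and the median was also -0.09, and without control 2, 1 was lower and the median was -0.01. With all libraries the interval was within 0.5 of 0 for 18 of the 19. Clpb, a disaggregase of mitochondria, had -0.19 (95% interval -0.39 to 0.02), and Hspa1l, the Hsp70 of spermatids, had -0.17 (95% interval -0.41 to 0.07). Calr3, the testis calreticulin, had -0.14, Herpud2 -0.11, and the J-domain proteins Dnajb8, Dnajb7, Dnaja4 and Dnajc5b -0.10, -0.08, -0.06 and -0.04. Closer to 0 were the chaperonin subunits Cct6b with -0.05 and Tcp1 with -0.01, the disulfide isomerase Pdilt with -0.02, Hspa2, the Hsp70 of SPC, with 0.02, and calmegin, encoded by Clgn, with 0.03. Hsbp1, which binds the heat shock factor HSF1, had 0.05, Dnajb13 had 0.06 and the ER-bound factor Creb3l4, had 0.14 (95% interval -0.34 to 0.62). Tcp1 was the most closely bounded of the list, with 418, 426 and 420 CPM in the control and 416, 419 and 422 CPM in the stress libraries and an interval from -0.12 to 0.10.

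With all 6 libraries, the medians of the other lists by role lay between -0.07 and 0.03, beside -0.01 for all features. For synaptonemal complex and meiotic chromosomes the median of 12 members was 0.03, for cell cycle and division (26) -0.02, for germ granule and RNA control (12) -0.01 and for redox proteins (8) -0.05. It was -0.01 for energy metabolism (14), -0.05 for spermatid nuclear condensation (7), -0.05 for transcription control of spermatids (11), 0.02 for acrosome and sperm surface (20) and -0.02 for the flagellum (29). The ubiquitin and proteasome list (20) had -0.06, with 2 members lower at an unadjusted p under 0.05, and the lipid and steroid list (15) had -0.07, also with 2 lower, Lipe and Agpat3, where 2.04% of all features were lower. The 2 of the ubiquitin list were Ube2n, which forms K63-linked ubiquitin chains, with 260, 292 and 312 CPM against 249, 244 and 251 CPM and a log2 fold change of -0.22, and Ubl3, a ubiquitin-like protein of membranes, with -0.14. Cdkn1c was the 1 higher member of the cell cycle list, and in the remaining lists 0 members had an unadjusted p under 0.05 with all 6 libraries.

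These list values rested in part on control 1. Without it, the lipid list had 7 of 15 members lower at an unadjusted p under 0.05 and a median of -0.14, and the ubiquitin list 7 of 20 and -0.12, where 3.83% of all features were lower with a median of 0.01. Redox had 3 of 8 lower and a median of -0.15, transcription control 4 of 11 and -0.13, nuclear condensation 3 of 7 and -0.13, the flagellum 5 of 29 and -0.07 and energy metabolism 4 of 14 and -0.04. The cell cycle list had 4 of 26 lower and -0.06, germ granule 2 of 12 and -0.06, the acrosome 2 of 20 and -0.01, and the meiotic list 0 of 12 and 0.01. No member of these lists was then higher at that threshold. Without control 1 and the first 3-day library, 7 members of the lipid list and 6 of the ubiquitin list were lower, where 3.25% of all features were. Without control 2, the lipid list had 1 lower and 1 higher member and a median of -0.02, and the ubiquitin list 0 lower and a median of -0.01.

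With all 6 libraries the ends of the range within these lists were as follows. In the flagellum list, where all 29 intervals were within 0.5 of 0, the values ran from -0.16 for Akap4, the main anchoring protein of the fibrous sheath, to 0.12 for Enkur. Akap4 had 1648, 2086 and 2010 CPM in the control and 1622, 1788 and 1723 CPM in the stress libraries. In the acrosome list, where all 20 intervals were within 0.5, they ran from -0.11 for Cylc1, a protein of the perinuclear calyx, to 0.11 for Spaca7. The nuclear condensation list ran from -0.18 for Prm3 to 0.07 for Dpy30. These 3 lists hold structural genes of the spermatid, and the interval of each member lay within a 1.41-fold difference.

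In the meiotic list the lowest value was -0.24 for Xrcc4, of DNA end joining, and the highest 0.32 for Morc2b. Morc2b had 183, 187 and 57.9 CPM in the control and 168, 197 and 169 CPM in the stress libraries, so that control 3 alone was low. The germ granule list ran from -0.11 for the cap-binding protein Eif4e to 0.18 for Pabpc2, a poly(A)-binding protein, which was also low in control 3 at 252 CPM against 347 and 428 CPM in the other controls and between 376 and 395 CPM in the stress libraries. Without control 3 its log2 fold change was 0.00. Energy metabolism ran from -0.27 for Mdh1b to 0.21 for Fbp1, a gluconeogenic enzyme, which had 128 CPM in control 3 and between 176 and 205 CPM elsewhere and was 0.04 without that library. Transcription control ran from -0.21 for Ovol2 to 0.13 for Mbd3l1. Redox ran from -0.32 for Nqo2 to 0.09 for Txndc8. Rnf7, at 0.05, and Crls1, at 0.06, were the highest of the ubiquitin and lipid lists.

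**Figure D5:**
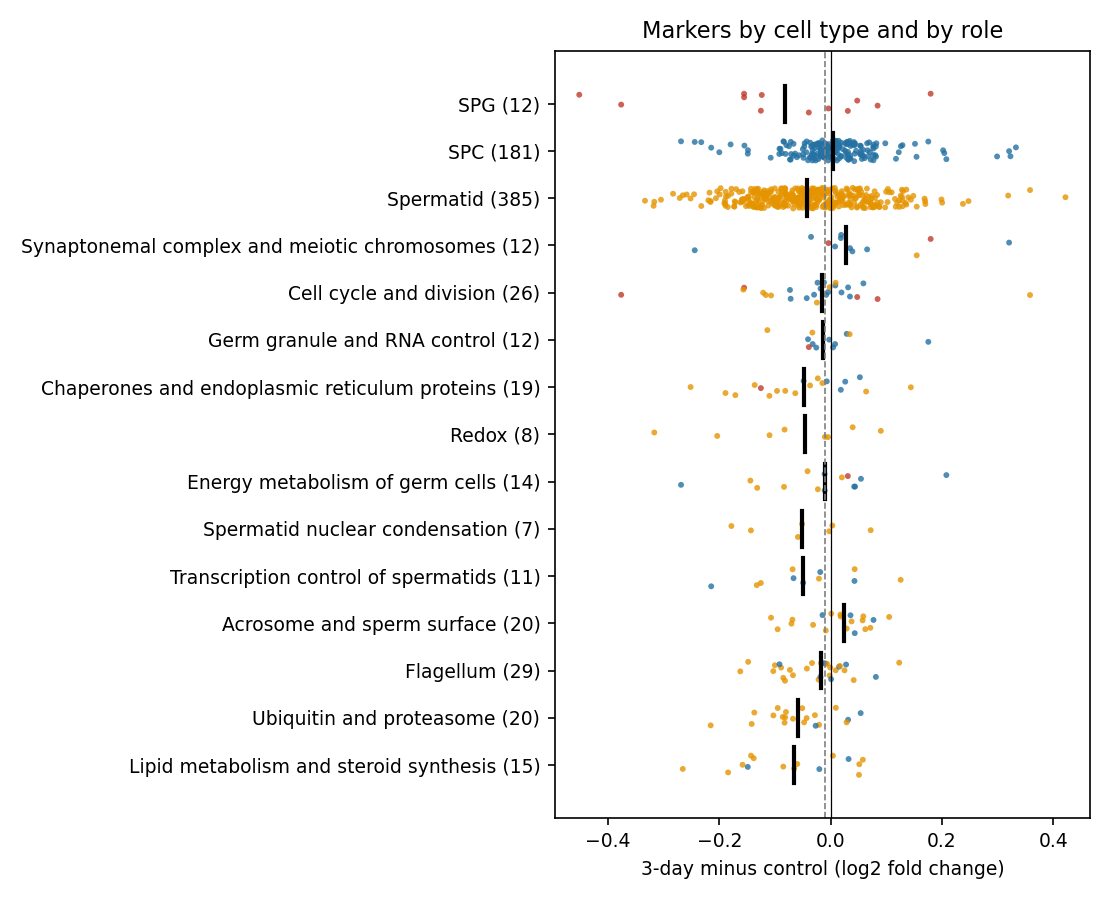
Log2 fold change (3-day minus control) of each marker by cell type and by role, coloured by cell type (red SPG, blue SPC, orange spermatid), with the median of each group as a black bar, 0 as a solid line and the median of all features as a dashed line. The number of members is in brackets, and with all 6 libraries the medians lie between -0.08 and 0.03.

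Promoter elements of other stress pathways were searched in the same way. The heat shock element GAANNTTCNNGAA was in 267 promoters (0.798%), 5 of them of markers (Art3, Dnah8, Lyzl4, Morn3 and Osgin1), whose log2 fold changes lay between -0.10 and 0.07. The glucocorticoid response element GNACANNNTGTNC was in 147 promoters (0.439%) and in 1 of a marker, the proteasome subunit Psma6, with a log2 fold change of -0.08. The cAMP response element TGACGTCA, through which the factor CREM acts in spermatids, was in 612 promoters (1.83%) and in those of 20 markers. These 20 had a median log2 fold change of 0.02, beside -0.03 for the 469 markers with a promoter, 12 were positive, and 1 had an unadjusted p under 0.05, Zdbf2. Tnp1 is among the 20, and its promoter (RefSeq, GRCr8, chr9:82044279-82044528, minus strand) is shown with the element in capitals.
Tnp1: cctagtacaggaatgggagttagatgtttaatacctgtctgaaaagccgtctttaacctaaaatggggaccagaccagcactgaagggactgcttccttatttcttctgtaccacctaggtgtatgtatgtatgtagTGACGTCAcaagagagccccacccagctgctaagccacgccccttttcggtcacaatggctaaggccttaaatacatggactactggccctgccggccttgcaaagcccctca

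The element starts 113 bases before the gene start of Tnp1. In Hspa5, Herpud1 and Creld2 the matches start 43, 90 and 145 bases before it. A match describes the letters in the window and says nothing of binding in these libraries.

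For 153 markers made of several transcripts, the share of the most abundant transcript was compared. The median absolute difference between the group means was 0.636 percentage points, and in 49 markers this transcript held over 90% of the TPM in each library. Arl13b, a GTPase of cilia, was the 1 marker whose means differed by over 10 points. Its main transcript held 71.4%, 71.9% and 89.2% of the TPM in the control libraries and 54.8%, 52.7% and 69.1% in the 3-day libraries. All stress libraries were lower, but library 3 of each group was well above the others of its group. No test of these shares was run. For Cast, which encodes calpastatin, the share was 2.30% in control 1 against between 34.03% and 53.0% in the other 5 libraries.

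Libraries after 14 and 21 days of RS+IS were set directly against the 3-day libraries, without the controls. If all groups began at the same age, rats sampled after 14 and 21 days were older than those after 3 days. Age and duration of stress then cannot be told apart here. After 14 days, 178 markers stood above their 3-day level and 31 below it with an unadjusted p under 0.05, where 7.73% of all features were higher and 5.65% lower. All 178 higher ones were spermatid markers, and the lower ones were 6 of 12 SPG, 21 SPC and 4 spermatid markers. After 21 days 178 were higher and 53 lower than after 3 days, where 8.23% of all features were higher and 8.32% lower, with 7 SPG and 44 SPC markers among the lower ones. The medians against 3 days were -0.18 for SPG, -0.04 for SPC and 0.14 for spermatid markers at 14 days, and -0.26, -0.09 and 0.16 at 21 days. Both comparisons used the same 3-day libraries, so they are not independent of each other. No marker passed an adjusted p of 0.05 over all features in either comparison with edgeR.

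Single genes show these values beside those against the controls, whose 3 libraries are the same in each comparison. Tnp1 was -0.14 after 3 days, 0.32 after 14 and 0.45 after 21 days against control, and the direct log2 difference from 3 days was 0.45 (standard error 0.0593) at 14 and 0.57 (standard error 0.0581) at 21 days. Ccne2 was 0.08, -0.27 and -0.37 against control, with direct differences of -0.36 (standard error 0.0726) and -0.48 (standard error 0.0691). The next 5 genes were chosen for their difference in the 3-day libraries, so their later values are given without a test. Herpud1 was -0.25, -0.01 and 0.08, Pdzd8 -0.28, -0.04 and 0.11, Agpat3 -0.18, -0.03 and -0.01, Glul -0.32, -0.25 and -0.16, and Cdkn1c 0.36, 0.51 and 0.66. Hspa5, one of the SPG markers, was -0.13, -0.22 and -0.26.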

How the data were processed

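RNA-seq of rat testis was analysed in 6 of 12 libraries, grouped by sample title. Per the submitters' notes and the study's methods, Trimmomatic, HISAT2 (Rnor_6.0) and HTSeq were used, with versions not given in the sources used here. For 31715 Ensembl transcripts the deposited tables hold an estimated count and a TPM value, together with 2 lengths, in the layout of kallisto, which the sources do not name. The authors had scaled TPM by effective length. No gene names are given, so the study's markers were found by matching their values: all 578 matched, 425 as 1 transcript and 153 as sums, 781 transcripts together, which left 31512 features.

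Estimated counts were summed per marker and rounded. Groups were compared with edgeR 4.0.16 (R 4.3.3, TMM, filterByExpr, quasi-likelihood test, Benjamini-Hochberg adjustment over all features). CPM uses TMM factors, and a standard error is the log2 fold change over the square root of the test statistic. Alternatives were DESeq2 1.42.0, limma 3.58.1 (voom), other scalings and filters, all 12 libraries, a replicate block and libraries left out. Code was tested on simulated data. No 2 libraries were copies of each other (chi-square over its degrees of freedom 9.23 to 33.4 within groups). The study describes 3 biological replicates per group. The labels do not pair same-numbered libraries, whose deviations correlated by 0.137 on average (lowest 0.0424). The highest value, 0.317, was that of control 1 and the first 3-day library.

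Markers, lists and tests were chosen with earlier results of these data known. Named are all SPG markers, Sycp3, Piwil1, Tnp1, Tnp2 and markers past the unadjusted threshold. So are both ends of each list, the chaperone and ER list, and the 3 markers of each cell type with the highest control TPM. Up to 2 higher and 2 lower other features by DESeq2 were added, only from those whose groups did not overlap. Wide-interval markers, Arl13b, Cast, the transcript shares of Rac1 and promoter matches were named after their values were seen. Somatic marker lists were not used, since fewer than 80% of their members could be named. Promoters come from RefSeq (GRCr8).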

Additional observations from a re-analysis of the deposited data

How the results depend on the processing

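The count of features past an adjusted p of 0.05 was 0 with edgeR and stayed 0 with RLE factors, total scaling, TMM factors from features outside the markers and no filter. It was 1 with at least 10 counts in each library, 1 in a single fit of all 12 libraries, 5 with limma-voom and 37 with DESeq2. Leaving out 1 library gave 0 to 1. Features at an unadjusted p under 0.05 ranged from 626 to 1474 (845 with all libraries), with 1474 without control 1 and 1269 without control 2. Markers lower ranged from 6 to 129 (129 without control 1, 7 without control 2, 8 without control 3, 6 without the first and 6 without the third stress library), and markers higher from 3 to 16 (16 without control 2, 3 without the second stress library). The SPG median ranged from -0.116 to 0.036. Without both control 1 and the first 3-day library, 1306 features had an unadjusted p under 0.05. Of the markers, 2 were higher and 93 lower, where 2.93% of all features were higher and 3.25% lower. Scaling to the total count gave 19 higher markers in place of 5 and moved the median of all features from -0.01 to 0.02. With that scaling 945 of 21076 features had an unadjusted p under 0.05 in either direction. Without control 3, 725 of 21578 features did, and 786 of 21483 did without stress library 1. With stress library 2 left out the count was 660 of 21501, and with stress library 3 left out it was 626 of 21559. The split by direction is not given for any of these fits, so their marker counts have no background by direction here. Causes of these shifts were not tested.

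With the replicate number as a block, 36 markers were lower in place of 13, and 0 features passed the adjusted threshold. In that fit 825 of 21076 features had an unadjusted p under 0.05 in either direction. Their split by direction is not given here. The pairing of same-numbered libraries rests on no label, and 2 of the 6 libraries correlated best with their own number. For 73 named genes, 1184 values were computed under other settings. Of these, 1151 moved by less than 1 standard error, 31 of the other 33 moved when libraries were left out, and the last 2 (Elavl2 and Itgae) moved when the most abundant transcript alone was used. With 3 libraries per group, differences well inside the intervals given were not detectable.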
